A study of Mus musculus with 2 samples.

Results

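Imprinted genes are transcribed mainly from the allele inherited from the mother or from the allele inherited from the father. They were examined here in ureter explants treated with the GSK3 inhibitor BIO. The members were 36 known imprinted genes of the mouse, found on the array by the gene name that the scanner tables give each biological probe. Of these, 35 had a probe, and they held 67 of the 39429 biological probes. The array held no probe under the name Rian. The single probe of Rtl1, a gene derived from a retrotransposon and needed in the placenta, was not well above background in any channel, so that 34 members were tested among 21574 genes. By the allele named for them in the mouse, 12 tested members are maternally expressed and 21 paternally expressed, and Gnas gives transcripts of either kind.

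Ureters had been taken from wildtype NMRI embryos of undetermined sex at E12.5 and cultured on transwells for 18 h without FCS, in medium holding either 10 µM BIO or DMSO alone (2:1000). BIO (6-bromoindirubin-3-oxime) blocks GSK3, which stabilizes beta-catenin and turns on canonical WNT targets. Each of the 2 arrays carried RNA of a pool of control ureters in 1 channel and RNA of a pool of BIO-treated ureters in the other, with control in green and BIO in red in replicate 1 and the dyes exchanged in replicate 2. NMRI is an outbred stock, the pools mixed embryos, and a 60-base probe reads both alleles together, so each value is the sum over alleles and the parental origin of the RNA was not measured.

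Imprinting rests on DNA methylation that is laid down at control regions in the egg or the sperm and is kept in the embryo while the rest of the genome is reprogrammed. Imprinted genes lie in clusters in which a control region, often through a long noncoding RNA or an insulator, silences genes on one parental chromosome. Many of them act on prenatal growth, and many are high in embryonic tissue and decline after birth.

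The labelled tissue was checked against its markers. All 6 markers of the ureteric mesenchyme and all 6 of the ureteric epithelium were well above background in control and BIO channels, as were all markers of endothelium (8), macrophages (5), neural crest and neurons (6), erythroid cells (3) and nephron progenitors (4). The ratios of the arrays had a Pearson r of 0.80 across the tested probes, given as a description since probes are not replicates. The processed signals used below are the scanner software's background-subtracted and dye-normalized intensities in arbitrary units. They are compared within a probe only.

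The probes shown here are of noncoding members and passed the threshold given below. Probes of H19 and Airn that did not pass it are not shown. Each run is 60 bases in the deposited orientation, with coordinates of the probe in mm9.
Meg3, chr12:110799558-110799617: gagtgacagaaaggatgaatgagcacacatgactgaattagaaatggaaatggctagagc
Meg3, chr12:110809678-110809737: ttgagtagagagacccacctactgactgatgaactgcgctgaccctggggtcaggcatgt
Mirg, chr12:110968992-110969051: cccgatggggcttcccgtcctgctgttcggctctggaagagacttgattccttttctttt
Mirg, chr12:110979653-110979712: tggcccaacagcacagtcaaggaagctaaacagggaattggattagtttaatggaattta
Mirg, chr12:110987569-110987628: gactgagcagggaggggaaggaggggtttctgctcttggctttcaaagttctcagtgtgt
H19, chr7:149761492-149761551: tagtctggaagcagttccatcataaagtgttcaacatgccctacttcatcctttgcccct
Kcnq1ot1, chr7:150434020-150434079: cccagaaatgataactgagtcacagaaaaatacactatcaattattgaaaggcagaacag
Kcnq1ot1, chr7:150440140-150440199: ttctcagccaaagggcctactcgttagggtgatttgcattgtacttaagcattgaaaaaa

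More of the listed members were lower than higher after BIO. These members were chosen with earlier results of these data known. Of the 34 tested members, 20 fell, 2 rose and 12 did not pass the threshold by limma with Benjamini-Hochberg adjustment over all probes. Among all genes tested, 14.8% fell and 9.13% rose, and 23.9% passed in either direction. This balance depended on the processing, with 3184 genes fallen and 1970 risen here, 1939 and 827 under median centring, and 1319 and 1929 from the deposited score table, where more genes rose than fell. The median log2 ratio of the members was -0.42, with -0.39 on replicate 1 and -0.44 on replicate 2, beside -0.01 over all genes. A list of 32 further imprinted genes, given at the end, had a median of -0.10. Of that list 15.6% fell, near the share of all genes, so the result is for the listed members. On both arrays 24 members were below 0 and 7 above it, and 3 had opposite signs on the arrays. A fold rule taken from the study's methods asked for at least 2-fold on both arrays, with a signal of at least 100 in the brighter channel. By it 6 members were lower (Asb4, Mirg, Kcnq1, Dlk1, Peg3 and Mest) and 0 were higher, beside 2.04% and 1.04% of all genes. Kcnq1 passed at the edge of the limit, through its control channel, with 100 in control and 29.7 in BIO on replicate 1. That rule has no test.

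Maternally and paternally expressed genes both contributed members that fell. Of the 12 maternally expressed genes 9 fell (75.0%) and 0 rose, beside 14.8% and 9.13% of all genes tested. The median log2 ratio of the maternal class was -0.53, with -0.49 on replicate 1 and -0.65 on replicate 2. Of the 21 paternally expressed genes 10 fell (47.6%) and 2 rose (9.52%), with a median of -0.33 that was -0.29 and -0.26 on the arrays. The ranges overlapped, from -2.19 to 0.31 in the maternal and from -1.34 to 0.44 in the paternal class, and the difference between the classes was not tested. Ascl2, Cd81 and Kcnq1 are imprinted mainly in the placenta or only early in development. Without them the maternal class held 9 genes, of which 6 fell, with a median of -0.64. Both members that rose are paternally expressed, a share near the 9.13% of all genes, and so are several of those that fell most.

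**Figure D1:**
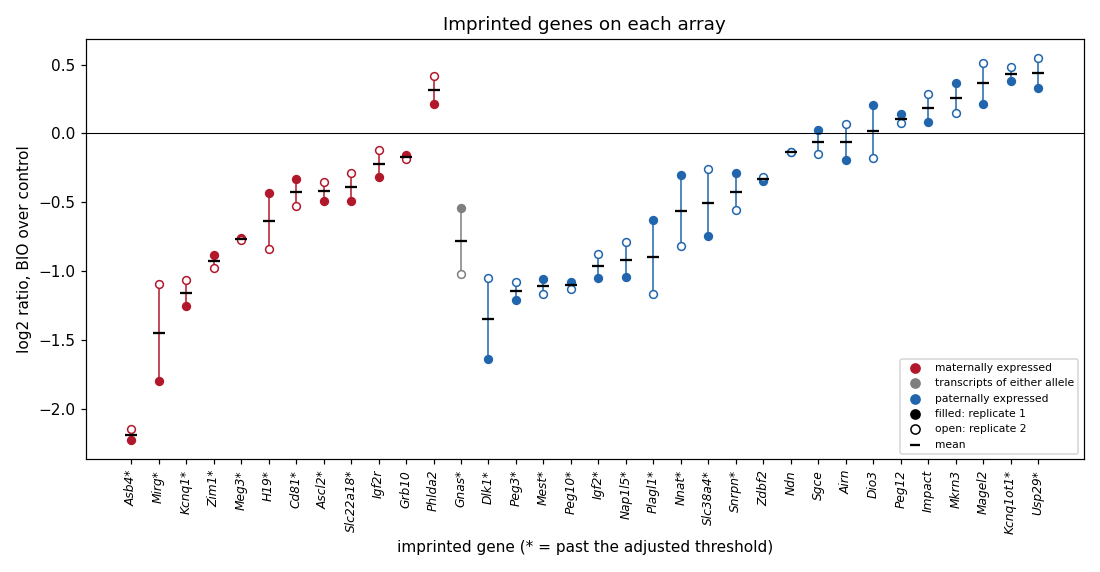
Log2 ratio of BIO over control for the 34 tested imprinted genes, by the allele named for them, with a filled point for replicate 1, an open point for replicate 2 and a bar for their mean. The lowest gene is Asb4 at -2.19 and the highest are Usp29 and Kcnq1ot1, and 24 genes lie below 0 on both arrays.

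**Figure D2:**
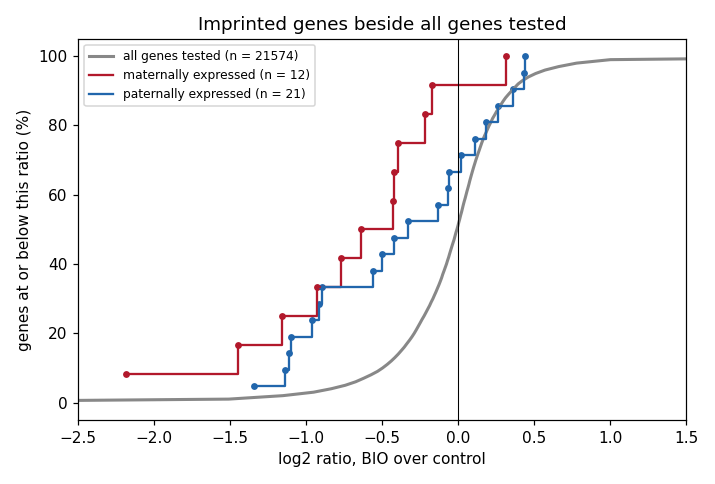
Share of genes at or below each log2 ratio, for all 21574 genes tested and for the 12 maternally and 21 paternally expressed members. The curve of all genes crosses 50% near -0.01, while the medians of the classes are -0.53 and -0.33.

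The ligand genes Dlk1 and Igf2 fell, and Igf2r, which encodes a receptor of IGF2, was not called. Dlk1 encodes a membrane ligand of the Notch family that restrains differentiation, and it is paternally expressed. Its processed signal was 13226 in control and 4388 in BIO on replicate 1, and 15176 and 7281 on replicate 2. Both BIO values were below both control values. The log2 ratio was -1.34 ± 0.15 (SE, n = 2; adjusted p = 0.000559, limma), and the second probe of Dlk1 fell by 1.25 on the log2 scale. Igf2 encodes the insulin-like growth factor of the fetus and is also paternally expressed. Its signal went from 10576 to 5177 and from 8033 to 4444, again without overlap between the groups. The log2 ratio was -0.96 ± 0.11 (SE, n = 2; adjusted p = 0.000725, limma). Igf2r, the maternally expressed receptor that carries IGF2 to the lysosome, had log2 ratios of -0.32 and -0.12.

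Genes that act inside the cell on growth signals gave both kinds of result. Asb4, a maternally expressed substrate adaptor of a ubiquitin ligase that is known from developing blood vessels, had the largest change of all members. Its signal was 2626 in control against 543 in BIO on replicate 1, and 3502 against 821 on replicate 2. Both control values lay well above both BIO values, and the decrease was 4.55-fold. The log2 ratio was -2.19 ± 0.11 (SE, n = 2; adjusted p = 3.18e-05, limma), and a dimmer probe at chr6:5348463-5348522, upstream of the brighter at chr6:5382886-5382945, fell by 1.40. Grb10, a maternally expressed adaptor that dampens insulin and IGF receptor signaling, was not called, with log2 ratios of -0.15 and -0.19. Phlda2, a maternally expressed pleckstrin-domain protein that limits placental growth, was at 0.31 ± 0.11 and was not called. Cd81, a tetraspanin of the cell surface, fell by 0.43. The probe of Cd81 was among the brightest, with 2.11% of the tested probes brighter.

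Beside Asb4 stand the markers of the vessel wall. All 8 markers of endothelium fell, with a median log2 ratio of -2.07, and their summed processed signal went from 28597 to 5317 on replicate 1 and from 34430 to 9919 on replicate 2, with none of the markers at 0. Of the macrophage markers 4 of 5 fell, of the epithelial markers 4 of 6, of the neural markers 3 of 6, of the erythroid markers 1 of 3, and of the mesenchymal markers 1 of 6, beside 14.8% of all genes. Of the mesenchymal markers 1 rose, and so did 1 of 4 nephron progenitor markers, of which 0 fell. All 5 genes of cycling cells rose, beside 9.13% of all genes. In whole ureters fewer cells of a type and less RNA per cell cannot be told apart, and the part of these cell types in the ratios of the imprinted genes was not tested.

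The transcription factor genes Peg3, Zim1, Plagl1 and Ascl2 fell. Peg3 is a paternally expressed zinc finger protein tied to growth and maternal care. Its signal was 32177 in control and 14554 in BIO on replicate 1, and 33393 and 15761 on replicate 2. The arrays gave nearly the same change, -1.14 ± 0.11 on the log2 scale (SE, n = 2; adjusted p = 0.0003, limma), and the second probe fell by 1.48. Zim1, a maternally expressed zinc finger gene next to Peg3, fell by 0.93, from 383 to 211 and from 472 to 240. Plagl1, a paternally expressed zinc finger factor that regulates other imprinted genes, Igf2 and H19 among them, fell by 0.90 ± 0.14. Its signal went from 62928 to 36987 and from 73381 to 33534. The arrays differed by more for Plagl1 than for Peg3, with log2 ratios of -0.63 and -1.16. Ascl2, a basic helix-loop-helix factor of the trophoblast that is itself a target of WNT signaling in the intestine, fell by 0.42, but its dimmer probe was at -0.02 and was not called.

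**Figure D3:**
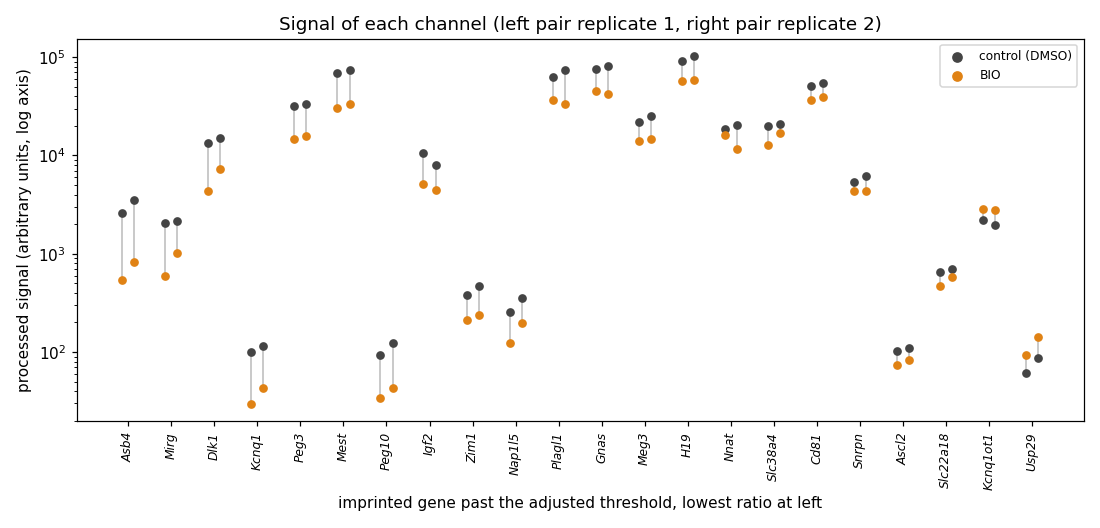
Processed signal of the 22 imprinted genes that passed the threshold, on a log axis, with control in grey and BIO in orange, and replicate 1 left of replicate 2 within each gene. The BIO point lies below its control point on both arrays for 20 genes and above it for 2, and the heights of different genes are not comparable.

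The noncoding RNAs went in different directions. Meg3 and Mirg are long noncoding RNAs of the Dlk1-Dio3 domain, made from the maternal chromosome and processed in part into small RNAs. In the RefSeq coordinates of GRCm38.p6, 10 microRNA hairpins lie within Mirg and 1 within Meg3. The 3 probes of Mirg shown above fell, with log2 ratios of -0.58, -1.45 and -0.85 in the order of their positions, and so did the 2 probes of Meg3 shown, with -1.25 and -0.77. The brightest Mirg probe read 2053 in control and 590 in BIO on replicate 1, and 2177 and 1022 on replicate 2. The brightest Meg3 probe read 21769 and 13973, and 24897 and 14661. Both RNAs were thus lower in each BIO channel at each probe shown.

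H19, a maternally expressed RNA that shares enhancers with Igf2, fell by 0.64 ± 0.13 on the log2 scale at its brightest probe (adjusted p = 0.00973, limma). That probe read 90216 in control and 57264 in BIO on replicate 1, and 102009 and 58266 on replicate 2, and 0.08% of the tested probes were brighter. A dimmer probe of H19, with signals between 54.7 and 81.2, was not called, at -0.21. Kcnq1ot1, the paternally expressed RNA that silences its neighbours in cis, rose. Its signal went from 2188 to 2874 on replicate 1 and from 1943 to 2800 on replicate 2, so that both BIO values were above both control values. The log2 ratio was 0.43 ± 0.11 (SE, n = 2; adjusted p = 0.0245, limma), and the second probe, shown above, rose by 0.52. Airn, the paternally expressed RNA that silences Igf2r, had 4 probes between -0.17 and -0.01, and none was called.

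In some clusters genes of opposite parental alleles both fell, and in others they did not. In the Dlk1-Dio3 domain on chromosome 12 the paternally expressed Dlk1 and the maternally expressed Meg3 and Mirg all fell, with a median log2 ratio of -1.06 over the 4 tested genes. Dio3, the paternally expressed enzyme that inactivates thyroid hormone, was close to the background, with log2 ratios of 0.21 and -0.18. At the Igf2-H19 pair on chromosome 7 the paternal Igf2 and the maternal H19 both fell, though H19 was not called under median centring (-0.25, adjusted p = 0.611, limma). In the Kcnq1 domain, also on chromosome 7, 4 of 6 genes fell, beside 14.8% of all genes. All 4 are maternally expressed, but the maternally expressed Phlda2 was at 0.31 and was not called. The paternally expressed silencing RNA Kcnq1ot1 rose. Under median centring Kcnq1 kept its call, and Ascl2, Cd81, Slc22a18 and Kcnq1ot1 lost theirs. At the Igf2r-Airn pair on chromosome 17 neither gene was called. Kcnq1, a potassium channel subunit, read 100 in control and 29.7 in BIO on replicate 1, and 116 and 42.9 on replicate 2. Its log2 ratio was -1.16 ± 0.11 (SE, n = 2; adjusted p = 0.00031, limma), and -1.64 on the processed signals, where no offset pulls dim probes toward 0. Slc22a18, a transporter of the same domain, fell by 0.39.

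In the cluster of Peg10 on chromosome 6, Peg10 and Asb4 fell and Sgce did not pass the threshold. Peg10, derived from a retrotransposon and needed in the placenta, read 94.2 in control and 33.9 in BIO on replicate 1, and 124 and 42.8 on replicate 2. Its log2 ratio was -1.10 ± 0.11 (SE, n = 2; adjusted p = 0.000322, limma), and -1.54 on the processed signals. A further Peg10 probe was not tested, since control exceeded the background clearly on 1 array and BIO on 0. Sgce, a sarcoglycan whose gene starts next to Peg10 on the opposite strand, had log2 ratios of 0.02 and -0.15. The difference between these neighbours was not tested.

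The starts of Peg3 and Usp29 lie back to back on chromosome 7. Their RNAs went in opposite directions in the main fit, but Usp29 was not called under median centring (0.35, adjusted p = 0.377, limma). Usp29, a paternally expressed deubiquitinase gene, read 61.2 in control and 93.1 in BIO on replicate 1, and 87.0 and 142 on replicate 2. It rose by 0.44 ± 0.11 on the log2 scale (SE, n = 2; adjusted p = 0.0267, limma), while Peg3 fell by 1.14. The 163 bases between the starts in RefSeq, chr7:6730420-6730582 of GRCm38.p6 on the strand of Usp29, are shown with their 5 CG dinucleotides in capitals, CG being the letters at which imprints are methylated.
Peg3-Usp29: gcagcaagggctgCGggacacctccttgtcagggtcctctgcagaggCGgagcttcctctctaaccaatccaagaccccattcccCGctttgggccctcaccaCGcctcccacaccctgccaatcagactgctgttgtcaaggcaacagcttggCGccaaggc

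**Figure D4:**
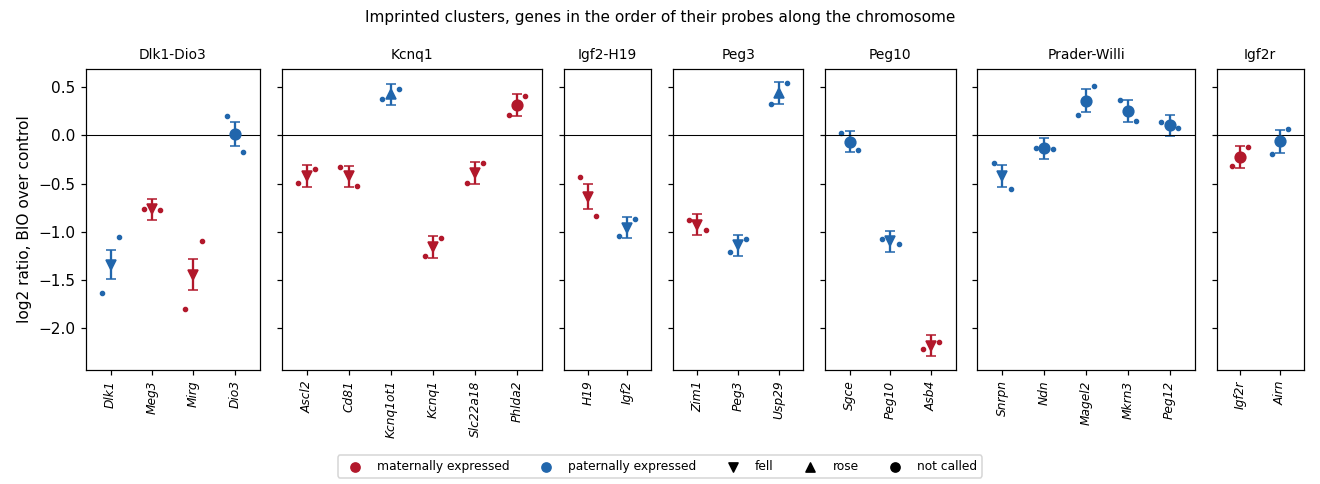
Log2 ratio of BIO over control in 7 imprinted clusters, with the mean and its standard error as large symbols and the arrays as small dots (n = 2), red for maternally and blue for paternally expressed genes. In the Dlk1-Dio3, Igf2-H19, Peg3 and Peg10 clusters genes of both colors passed the threshold below 0. Kcnq1ot1 and Usp29 passed it above 0, and some genes that were not called also lie above 0.

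In the Prader-Willi region 1 of 5 genes passed the threshold, beside 23.9% of all genes. All 5 are paternally expressed, and their median log2 ratio was 0.11. Snrpn, which encodes a protein of the splicing machinery, fell by 0.42, from 5391 to 4355 and from 6126 to 4323, and another of its 3 probes fell by 0.36. Ndn, a MAGE family protein that restrains cell growth, had log2 ratios of -0.13 and -0.14. Magel2, its relative that steers protein recycling, had ratios of 0.21 and 0.51. Mkrn3, a ring finger protein that holds back puberty, had ratios of 0.37 and 0.15, and Peg12 had ratios of 0.14 and 0.07. None of these 4 was called by limma, which with 2 arrays does not show that their levels were unchanged.

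The remaining members are enzymes, transporters and regulators outside these clusters. Mest, a paternally expressed hydrolase of the mesoderm, read 68823 in control and 30617 in BIO on replicate 1, and 73415 and 33172 on replicate 2. Its log2 ratio was -1.11 ± 0.11 (SE, n = 2; adjusted p = 0.000326, limma), and its 3 probes fell by between 0.96 and 1.22. Nap1l5, related to nucleosome assembly proteins, fell by 0.92, from 255 to 123 and from 354 to 198. Nnat, a small membrane proteolipid of the endoplasmic reticulum, fell by 0.56, with ratios of -0.31 and -0.82, so that its arrays differed widely. Slc38a4, an amino acid transporter, fell by 0.50, with ratios of -0.75 and -0.26. Impact, a regulator of translation through GCN2, was at 0.18 ± 0.11 and Zdbf2, a zinc finger gene that sets later growth, at -0.33 ± 0.11. Neither was called, and Zdbf2 was dim, with signals between 24.5 and 40.3.

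Gnas, which encodes the alpha subunit of the stimulatory G protein and alternative products from upstream promoters, had 4 probes along chromosome 2 and fell at each. At the brightest, chr2:174171933-174171992, the signal went from 75732 to 44824 and from 81633 to 42462, and the log2 ratio was -0.78 ± 0.14 (SE, n = 2; adjusted p = 0.00481, limma). The probe at chr2:174163501-174163560 read 2296 in control and 630 in BIO on replicate 1, and 3021 and 1095 on replicate 2. It fell by 1.67. The probes at chr2:174122337-174122396 and chr2:174125482-174125541 fell by 1.01 and 0.46. The sizes differed by 1.21 on the log2 scale between the probes, a difference that was not tested, and which transcripts each probe reads was not assigned here.

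Several members could be checked with further probes. Of the 34 tested members, 21 had more than 1 tested probe, and in 0 of them did called probes differ in direction. H19, Ascl2, Snrpn and Plagl1 had a called and an uncalled probe. The 2 bright probes of Plagl1 fell, at -0.90 and -0.88, and share a run of 26 bases, and the 2 dimmer probes were at -0.31 and -0.34. The 2 Kcnq1 probes share a run of 51 bases and are hardly separate measurements.

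**Figure D5:**
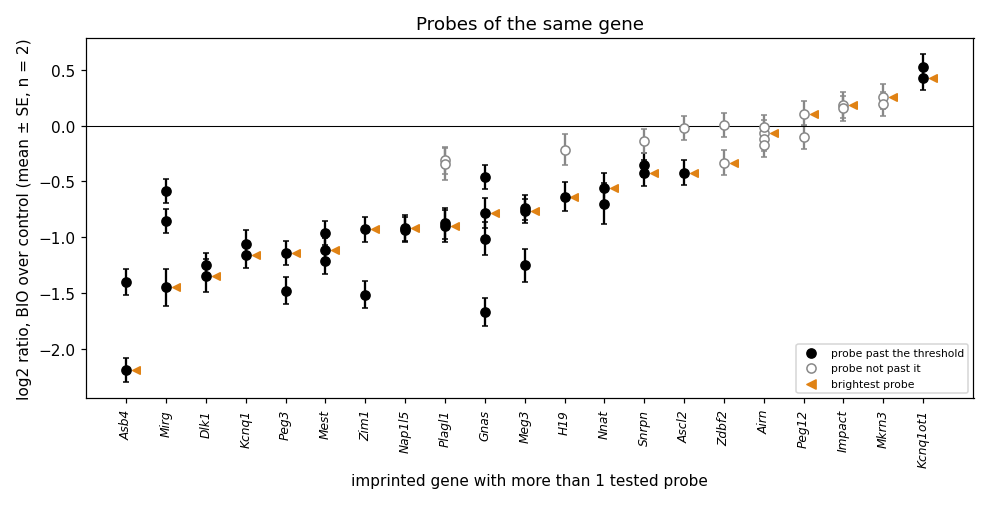
Log2 ratio of each tested probe (mean ± SE, n = 2 arrays) for the 21 imprinted genes with more than 1, with filled points for probes past the threshold and an orange mark at the brightest probe. Gnas, Mirg and Asb4 have the widest spreads between called probes, and no gene has called probes on both sides of 0.

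The choice of scaling decided part of the calls. When the log2 ratios were centred on the median in place of loess, 11 of the 22 members lost their call, those being H19, Gnas, Plagl1, Cd81, Nnat, Snrpn, Slc38a4, Slc22a18, Ascl2, Usp29 and Kcnq1ot1. There the log2 ratios of H19 (-0.25), Gnas (-0.44), Plagl1 (-0.58), Cd81 (-0.13), Nnat (-0.40), Slc38a4 (-0.36), Usp29 (0.35) and Kcnq1ot1 (0.38) were nearer to 0, and those of Slc22a18 (-0.52), Ascl2 (-0.53) and Snrpn (-0.43) were farther from it. The other 11, Asb4, Mirg, Dlk1, Kcnq1, Peg3, Mest, Peg10, Igf2, Zim1, Nap1l5 and Meg3, were still called as fallen under median centring, the processed signals, the offset of 16, no filter on dim probes and the mean of all probes. The deposited score table kept only 5 of the 22 calls.

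The promoters of the members were read from RefSeq (GRCm38.p6), as 300 bases from 250 before each start to 50 after it. Promoters were found for 30 members, while the promoter table used here had no entry for H19, Impact, Kcnq1, Peg10, Rtl1 and Sgce. The median number of CG dinucleotides was 13 over 46 member promoters and 7 over all 32544. ZFP57, a zinc finger protein that keeps imprints, binds the methylated letters TGCCGC. These letters, searched on both strands, were present in a promoter of 10 of the 30 members (33.3%) and of 13.2% of the 26742 genes of the table. They were present in 3 of 11 maternally and 7 of 18 paternally expressed members. Counted by promoter, since members have several starts more often, the shares were 23.9% of the member promoters and 11.7% of all. TGCCGC itself holds a CG, and the part of the higher CG number of the member promoters in these shares was not tested. The letters CTTTGAT, bound by the TCF and LEF factors of the WNT pathway, were in a promoter of 0 of 30 members and of 4.30% of all genes, also on both strands. A match is a run of letters and not a binding site, and no match says only that the letters are not in this window.

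The 250 bases before the start are shown for Mest and Plagl1, which fell, for Meg3 as a maternally expressed RNA that fell, and for Zdbf2, which was not called and holds the most matches. Capitals mark TGCCGC or its reverse complement, and each run is read 5′ to 3′ along the gene's strand, which is the plus strand for all 4.
Mest, chr6:30737800-30738049: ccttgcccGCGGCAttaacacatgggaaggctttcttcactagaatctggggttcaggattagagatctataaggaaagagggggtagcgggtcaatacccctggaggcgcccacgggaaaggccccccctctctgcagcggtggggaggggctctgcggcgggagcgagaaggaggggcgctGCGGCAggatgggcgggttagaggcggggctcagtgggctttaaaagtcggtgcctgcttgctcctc
Plagl1, chr10:13090582-13090831: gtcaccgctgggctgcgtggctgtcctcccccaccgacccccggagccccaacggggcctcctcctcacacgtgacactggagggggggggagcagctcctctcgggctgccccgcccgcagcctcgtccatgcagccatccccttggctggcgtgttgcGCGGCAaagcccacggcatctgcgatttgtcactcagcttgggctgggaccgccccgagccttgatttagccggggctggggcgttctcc
Meg3, chr12:109540746-109540995: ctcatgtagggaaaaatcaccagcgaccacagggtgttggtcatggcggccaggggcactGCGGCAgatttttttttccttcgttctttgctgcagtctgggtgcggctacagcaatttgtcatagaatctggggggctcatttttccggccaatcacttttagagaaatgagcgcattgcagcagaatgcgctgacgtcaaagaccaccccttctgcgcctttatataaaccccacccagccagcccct
Zdbf2, chr1:63200108-63200357: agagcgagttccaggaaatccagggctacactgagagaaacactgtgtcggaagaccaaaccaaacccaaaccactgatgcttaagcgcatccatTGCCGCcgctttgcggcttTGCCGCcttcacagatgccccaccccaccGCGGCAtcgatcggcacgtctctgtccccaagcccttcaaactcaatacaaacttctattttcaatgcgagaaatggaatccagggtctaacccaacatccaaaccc
The matches thus occur before starts of genes that fell and of a gene that did not pass the threshold, and methylation was not measured.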

How the data were processed

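The authors hybridized RNA of control and BIO-treated explants to 2-color Agilent arrays with a dye swap and quantified the scans with Feature Extraction 10.7.3.1. The deposited scanner tables hold, per spot, mean and local background intensity without normalization and processed signal intensity after background subtraction and dye normalization. The authors also deposited a table with 1 score per probe and array. How it was made is not given in the sources used here, and the score followed the processed log2 ratio of BIO over control across the tested probes (Spearman rho 0.95 and 0.96).

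In limma 3.58.1 (R 4.3.3) mean intensities were corrected by normexp with an offset of 50, normalized within each array by loess, and averaged over up to 4 spots per probe, without control and outlier spots. Ratios were turned to BIO over control, and lmFit and eBayes tested (two-sided) whether their mean differed from 0. The p-values were adjusted by Benjamini and Hochberg's method across 28824 probes, with 0.05 as the threshold. Probes entered when well above background in the control or the BIO channel of both arrays. Each gene was represented by its brightest probe. The fit was also run on simulated ratios after the main fit. Their spread was drawn from the main fit itself, so that run is no independent check and is not used here. The standard errors and p-values are moderated by eBayes. They join the spread between a probe's 2 arrays with a prior spread estimated from all tested probes (7.14 prior degrees of freedom). A standard error given with n = 2 is thus not the spread of these 2 values alone. Nothing says whether the pools came from separate litters, so the p-values speak for these arrays only. The 2 arrays limit the precision, with a median standard error of 0.111. Genes were named through RefSeq (GRCm38.p6), and all 67 member probes mapped to the gene of their file name. A further Meg3 probe is not reported here. Every member is reported, with a mean ratio or the ratios of both arrays for those above background. Signals are given in the text for most of those called. The members, their allele classes and the other lists were chosen with earlier results of these data known. Alternatives were the processed signals, median centring, an offset of 16, no filter on dim probes, the mean of all tested probes, the score table, other limits of the fold rule, the maternal class without 3 genes, and leaving out each array.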

Additional observations from a re-analysis of the deposited data

How the results depend on the processing

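The count of changed genes, 5154, was 2766 under median centring (1939 fallen, 827 risen) and 3248 from the deposited score table (1319 fallen, 1929 risen). Under median centring 11 members were called in all, with 11 fallen and 0 risen, and from the score table the calls were 7 in all, with 6 fallen and 1 risen. Of these 7, only 5 were among the 22 called in the main fit, so most main calls were lost there. With the processed signals 1 member was called as risen. The median log2 ratio of the paternally expressed members, -0.33, was -0.44 with the processed signals, -0.36 under median centring, -0.42 at an offset of 16, -0.23 where dim probes were kept and -0.16 for the mean of all tested probes. Leaving out an array in turn gave -0.26 to -0.29 for the paternal median and -0.49 to -0.65 for the maternal median. The fold rule passed 13 members at 1.5-fold and 1 at 3-fold. No member's mean ratio past the threshold turned its sign with the processed signals, median centring, the offset of 16, dim probes kept or the mean of probes. Outside median centring and the score table, calls were lost with the processed signals (Snrpn, Nnat, Ascl2, Kcnq1ot1, Slc38a4 and Slc22a18), the offset of 16 (Snrpn, Slc38a4, Slc22a18 and Cd81), dim probes kept (Nnat and Slc38a4) and the mean of probes (Snrpn and Ascl2). Magel2 passed the threshold with the mean of all tested probes (0.36), and Zdbf2 with the processed signals (-0.57) and with the offset of 16 (-0.42). The cause of these shifts was not tested. The main test is itself paired, on ratios within each array, and no further block could be added. With 1 array left out no test across genes can be fitted. For dim genes such as Kcnq1, Peg10, Usp29 and Zdbf2 the signal over background limits the ratio.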

Other observations

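A list of 32 further imprinted genes, all tested, held 5 that fell and 1 that rose, with a median log2 ratio of -0.10. These are 15.6% and 3.13% of the list, beside 14.8% and 9.13% of all genes, so that the share of this second list of imprinted genes that fell was near the background. Ddc, the decarboxylase that makes dopamine and serotonin, fell by 1.41, Sfmbt2, a Polycomb group gene, by 0.82, Dcn, a proteoglycan of the matrix, by 0.62, Klf14, a transcription factor, by 0.61, and Trpm5, a cation channel, by 0.41. Atp10a, a lipid flippase, rose by 1.02, with log2 ratios of 1.20 and 0.84. Copg2, the neighbour of Mest, had ratios of 0.49 and -0.05, Blcap, whose intron holds Nnat, -0.04 and -0.74, and Ube3a, at the edge of the Prader-Willi region, 0.13 and 0.16. None of these 3 was called.

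Of 8 keepers of imprints 7 were tested, and 2 rose and 0 fell, so that 28.6% were called, beside 23.9% of all genes. Uhrf1, which brings the maintenance methyltransferase to replicating DNA, rose by 0.81, and Dnmt1, that methyltransferase, by 0.41. Zfp57 was at 0.00, Trim28 at -0.03, Zfp445 at -0.03, Ctcf at 0.15 and Smchd1 at 0.32, and none was called. All 5 genes of cycling cells rose as well, with a median of 1.06, and their part in the ratios of Uhrf1 and Dnmt1 was not tested. Among 5 partners of IGF2 none passed the threshold. Igf1r, the receptor that carries its growth signal, was at -0.38 ± 0.12 (adjusted p = 0.0512, limma), Insr at -0.06, and the RNA-binding proteins Igf2bp1, Igf2bp2 and Igf2bp3 at 0.02, -0.17 and -0.37.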
